A study of Mus musculus with 14 samples.

Results

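The SOCS family comprises 8 genes, Cish and Socs1 to Socs7. Their expression was followed across 14 mouse arrays of early thymic T cell precursors and of leukemic cells. The scanner files used here carry no gene name column, so the probes were taken by the RefSeq accession of each non-control probe, which the RefSeq gene table pairs with a symbol. This found all 8 genes on 11 probes, out of 20972 named genes and 55681 probes. Socs2 had 3 probes, Socs6 had 2 and every other member had 1. Each gene is described by its brightest probe, and the other probes are given where they were read.

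All donor marrow was C57BL/6 and carried Cre-ERT2, a Cre recombinase fused to an estrogen receptor so that it cuts only when drug is given. Marrow with Cre-ERT2 alone is called WT. The other donors also carried floxed Ezh2 (Ezh2-deleted), floxed p53 (p53-deleted) or both floxed genes (double-deleted), so WT cells had the recombinase too. Recipients were wild-type CD45.1+ mice given a lethal radiation dose, deletion followed 4 weeks later, and thymic cells without CD4 and CD8 were sorted 3 months after transplantation. DN1 cells are CD44+CD25-, DN2 cells CD44+CD25+ and DN3 cells CD44-CD25+. Each of the 4 genotypes had 1 array at each of the 3 stages, and 2 further arrays held DN2-gated leukemic cells of double-deleted mice 13 and 19, both with early T cell precursor acute lymphoblastic leukemia (ETP-ALL). The labels give no harvest time for the leukemias, and leave unsaid whether 1 mouse or several gave the 3 stages of a genotype. The treatment text speaks of sorted bone marrow, whereas the design and sample labels give the thymus.

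SOCS proteins are feedback brakes on cytokine receptors. A cytokine activates Janus kinases (JAKs) on its receptor, the JAKs phosphorylate STAT transcription factors, and the STATs switch on, among other genes, SOCS genes. Each SOCS protein has an SH2 domain that binds phosphotyrosine and a SOCS box that recruits elongin B, elongin C and a cullin ubiquitin ligase. SOCS1 and SOCS3 can in addition block JAK activity directly. In the thymus, IL-7 and interferon signals are known to be restrained by SOCS1, and CISH and SOCS2 are classical products of STAT5 activity.

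RefSeq promoter windows (build GRCm38.p6, 250 bases before to 50 after the annotated start) were matched for 4 of the 8 members, Cish, Socs1, Socs3 and Socs4. They were searched on both strands for the spaced palindrome TTCNNNGAA, which STAT dimers recognise, for the same palindrome with 1 more base in its spacer, and, chosen after the windows had been read, for the interferon-type repeat of GAAA, NN and GAAA. Of the 3 windows below, Cish and Socs3 are shown because they hold the first motif, and Socs1 because its level separated the leukemias. Each is printed 5′ to 3′ to 20 bases past the start with the matches in capitals.
Cish promoter, chr9:107296409-107296678 (+ strand): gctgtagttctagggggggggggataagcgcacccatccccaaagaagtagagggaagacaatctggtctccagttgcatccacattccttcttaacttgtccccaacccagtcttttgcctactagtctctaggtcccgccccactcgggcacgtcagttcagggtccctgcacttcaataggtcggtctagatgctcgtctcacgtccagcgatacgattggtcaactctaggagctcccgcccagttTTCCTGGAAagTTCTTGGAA
Socs3 promoter, chr11:117969347-117969616 (- strand): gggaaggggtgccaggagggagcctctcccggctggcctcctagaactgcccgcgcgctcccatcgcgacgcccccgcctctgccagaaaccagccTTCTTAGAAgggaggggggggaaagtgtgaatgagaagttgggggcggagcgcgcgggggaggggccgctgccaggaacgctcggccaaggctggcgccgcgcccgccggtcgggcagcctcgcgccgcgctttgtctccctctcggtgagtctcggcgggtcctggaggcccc
Socs1 promoter, chr16:10785517-10785786 (- strand): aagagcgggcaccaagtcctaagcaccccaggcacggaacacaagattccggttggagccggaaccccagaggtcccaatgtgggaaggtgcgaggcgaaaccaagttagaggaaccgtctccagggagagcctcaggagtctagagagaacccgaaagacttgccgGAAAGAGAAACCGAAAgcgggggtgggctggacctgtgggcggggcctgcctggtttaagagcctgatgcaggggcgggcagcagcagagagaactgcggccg

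The Cish window held 2 matches to TTCNNNGAA, TTCCTGGAA at the annotated start itself and TTCTTGGAA 11 bases after it. The Socs3 window held 1, TTCTTAGAA, which began 154 bases before the start. The Socs1 window held neither palindrome but had 2 overlapping matches to the GAAA repeat, GAAAGAGAAA and GAAACCGAAA, that began 83 and 77 bases before the start. The Socs4 window held none of the 3 motifs. Among all 32851 promoter windows of this length, 8.3% held TTCNNNGAA, 6.95% held the longer palindrome and 3.44% held the GAAA repeat. A match is a run of letters and does not show that a factor binds there.

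Levels below are log2 values of the processed signal relative to the 75th percentile of the same array, so 0 is the level of a fairly bright probe and a difference of 1 is 2-fold. They are not compared between genes, because probes differ in brightness. Changes are limma estimates with standard errors, and a change was called when its p, adjusted by Benjamini-Hochberg over all features of the comparison, was under 0.05. With 1 array per genotype and stage, stages stand in for replicates when genotypes are compared, and the p measures how well the stages match, not the spread between mice. On the 6 arrays of slide 2, which held all Ezh2-deleted and p53-deleted samples, the 75th percentile of signal lay between 61.3 and 122.6. It lay between 270.9 and 524.1 on the other 8. Trp53, the gene of p53, was not above background on any p53-deleted array or in ETP-ALL 13, and was at -3.88 to -0.92 on the double-deleted arrays against 0.11 to 1.28 in WT. It was above background on all 3 double-deleted arrays and, at -3.85, in ETP-ALL 19. The Ezh2 probe read 2.78 to 3.89 on Ezh2-deleted and 2.36 to 4.43 on WT arrays and so checks no label, since its place relative to the floxed exons is not given. Xist was above background on 3 of 3 Ezh2-deleted arrays and on 0 of the other 11, and the Y-linked Ddx3y and Eif2s3y on 0 of 3 and on 11 of 11, so sex-linked expression separates the Ezh2-deleted arrays from all others and cannot be told apart from that genotype. Of the 9 T lineage markers, 9 were above background on every array except ETP-ALL 13, where Ptcra was not.

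**Figure D1:**
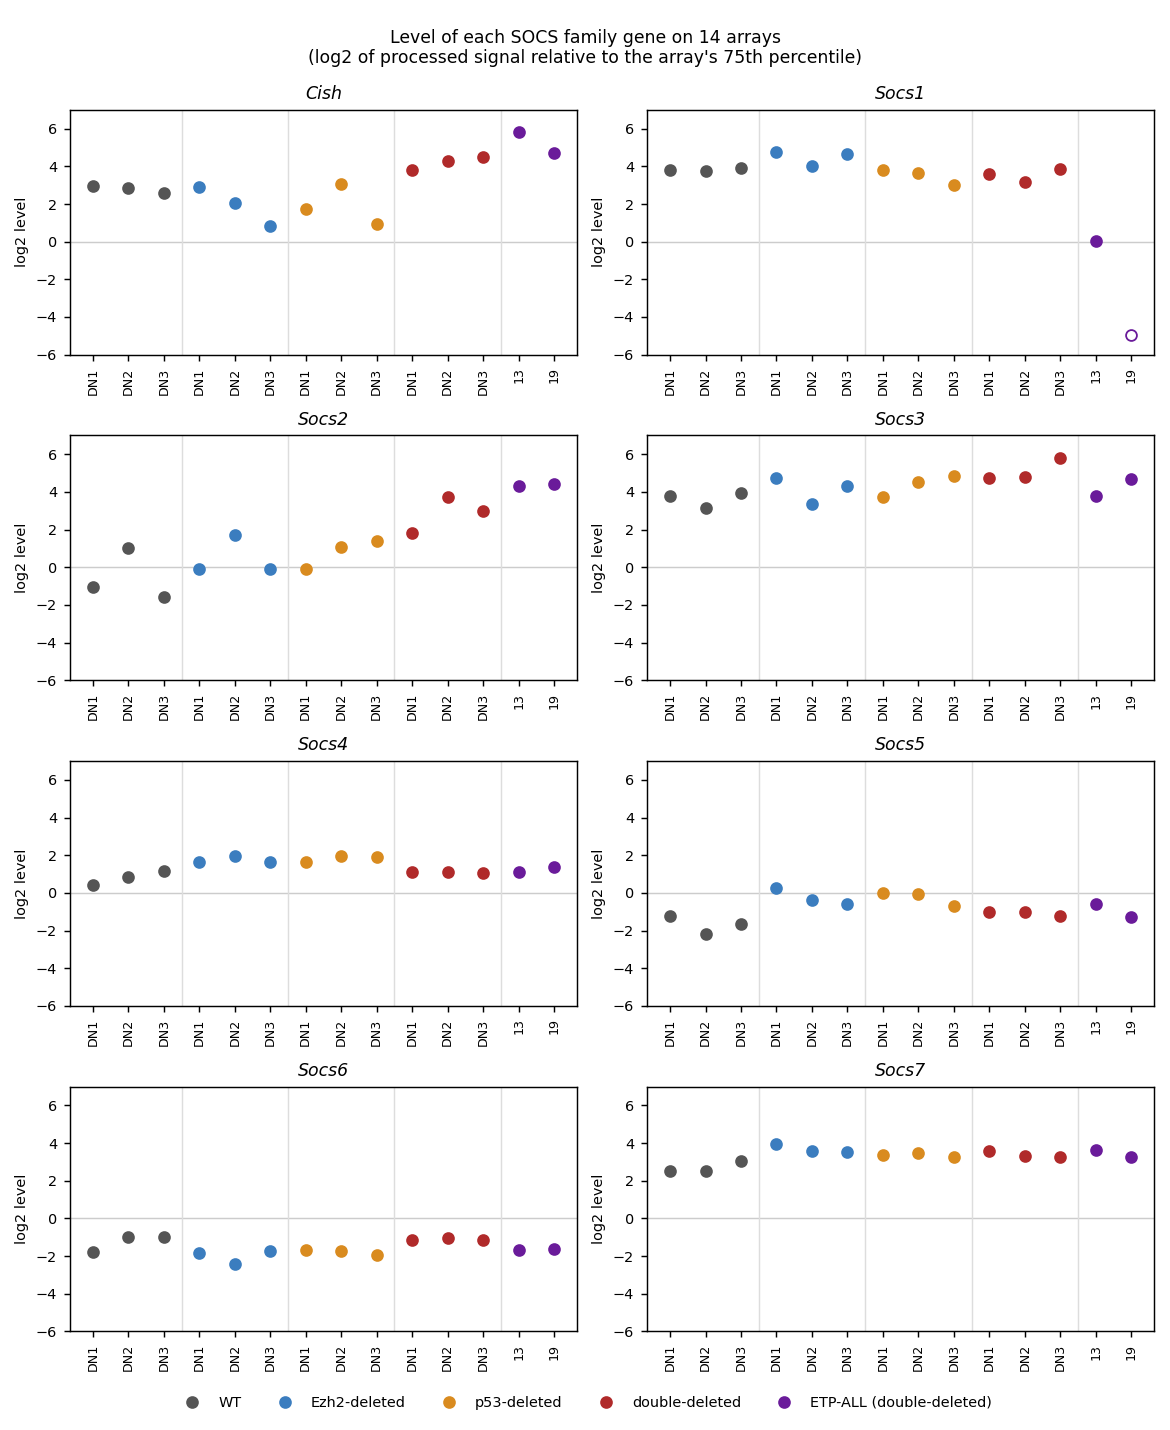
Level of each SOCS family gene (log2 of processed signal relative to the 75th percentile of the array, vertical axis) on each of the 14 arrays (horizontal axis), 1 point per array, coloured by genotype. The open point is not well above background. Cish and Socs2 are highest on the double-deleted and leukemic arrays, Socs1 drops to 0.02 and -4.96 in the leukemias, and Socs4 to Socs7 move within 2.43 units.

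Cish and Socs2, the members best known as STAT5 products, stood highest on the double-deleted arrays and higher still in the leukemias. Both lay above all 9 other non-leukemic arrays on each of the 3 double-deleted arrays, as did 1.98% of all features, and above all 12 non-leukemic arrays in both leukemias, as did 3.62%. No other member did either.

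Cish encodes CIS, which binds activated receptors of the IL-2 and erythropoietin type and of the T cell receptor pathway. Its level was 2.93, 2.83 and 2.57 in WT DN1, DN2 and DN3 cells. It was 2.89, 2.06 and 0.85 in Ezh2-deleted and 1.72, 3.05 and 0.95 in p53-deleted cells of the same stages. The double-deleted arrays read 3.83, 4.28 and 4.52, and ETP-ALL 13 and 19 read 5.83 and 4.72. The lowest double-deleted value therefore exceeded the highest value of the 3 other genotypes, 3.05 in p53-deleted DN2 cells, and the DN3 arrays were the lowest of the Ezh2-deleted and the p53-deleted arrays but the highest of the double-deleted ones.

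By genotype, Cish averaged 4.21 ± 0.35 (SD over 3 stages, n = 3) in double-deleted, 2.78 ± 0.19 in WT, 1.93 ± 1.02 in Ezh2-deleted and 1.91 ± 1.06 in p53-deleted cells. It rose by 2.30 ± 0.52 (SE) from p53-deleted to double-deleted cells (limma, adjusted p = 0.0104). It rose by 2.28 ± 0.52 from Ezh2-deleted to double-deleted cells (limma, adjusted p = 0.0113), and without the Ezh2-deleted DN3 array this was 1.88 (limma, adjusted p = 0.0517). The 1.43 ± 0.52 between double-deleted and WT cells was not called (limma, adjusted p = 0.119), although it was positive at each stage, with 0.90 at DN1, 1.44 at DN2 and 1.96 at DN3. WT, Ezh2-deleted and p53-deleted levels were not told apart, with changes of -0.84 and -0.87 against WT (limma, adjusted p = 0.231 and 0.216). All single deletions, and no WT or double-deleted array, were on slide 2. Between these 2 sets of arrays genotype cannot be told apart from slide.

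Socs2 encodes a SOCS protein known for restraining growth hormone signals and found in hematopoietic progenitors. It was the only member called between double-deleted and WT cells, where 7.18% of features were called. Its level was -1.06, 1.04 and -1.57 in WT DN1, DN2 and DN3 cells. It was -0.08, 1.70 and -0.09 in Ezh2-deleted and -0.07, 1.07 and 1.41 in p53-deleted cells. The double-deleted arrays read 1.82, 3.73 and 2.99, and both leukemias were close together at 4.31 and 4.41. No double-deleted value overlapped those of another genotype, the nearest being 1.70 in Ezh2-deleted DN2 cells against 1.82 in double-deleted DN1 cells.

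Socs2 averaged 2.84 ± 0.96 (SD over 3 stages, n = 3) in double-deleted, 0.80 ± 0.77 in p53-deleted, 0.51 ± 1.03 in Ezh2-deleted and -0.53 ± 1.38 in WT cells. It rose by 3.37 ± 0.48 (SE), or 10.35-fold, from WT to double-deleted cells (limma, adjusted p = 0.00587). The difference was 2.88 at DN1, 2.68 at DN2 and 4.55 at DN3. Double-deleted DN1 cells were run on a slide of their own. With slide as a block the change was 3.55 (limma, adjusted p = 0.0234), and over the DN2 and DN3 arrays that share a slide with WT it was 3.62 (limma, adjusted p = 0.0945). In these bulk samples, more cells that express the gene and more RNA per cell cannot be told apart, nor can fewer and less where a level is lower.

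Against the single deletions, Socs2 rose by 2.04 ± 0.48 from p53-deleted cells (limma, adjusted p = 0.013). This became 1.80 without the double-deleted DN3 array (limma, adjusted p = 0.0592). It rose by 2.33 ± 0.48 from Ezh2-deleted cells (limma, adjusted p = 0.00758). The 1.33 ± 0.48 between p53-deleted and WT cells (limma, adjusted p = 0.058) and the 1.04 ± 0.48 between Ezh2-deleted and WT cells (limma, adjusted p = 0.124) were not called. All single deletions were on slide 2, so in these 4 comparisons genotype cannot be told apart from slide.

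The other 2 Socs2 probes, which read the same transcript, gave the same order of arrays at the extremes. Both were lowest in WT DN3 cells, at -2.27 and -2.56, and highest in ETP-ALL 19, at 3.19 and 2.96. Their mean difference between double-deleted and WT arrays was 3.48 and 3.54. The mean of the leukemias minus double-deleted DN2 cells was smaller on them, at 0.14 and 0.28, than on the main probe, at 0.64. On the main probe the spots of 1 array, 10 in number, varied by an SD between 0.0231 and 0.1475, far less than the differences between arrays.

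**Figure D2:**
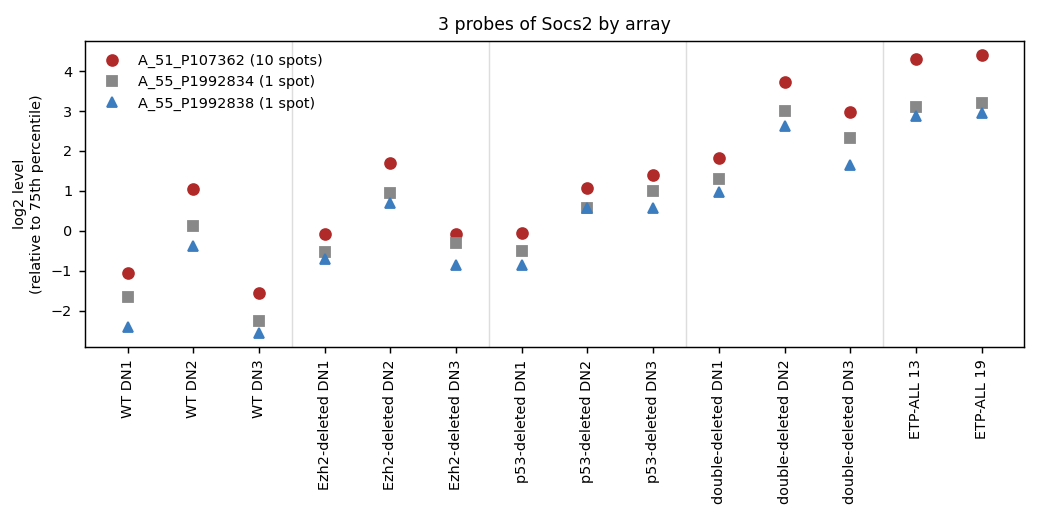
Level of the 3 Socs2 probes (log2 relative to the 75th percentile of the array, vertical axis) on each array (horizontal axis), with circles for the probe printed 10 times per array and squares and triangles for the probes printed once. Each probe is lowest in WT DN3 cells and highest in ETP-ALL 19.

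Across stages, no member was called between DN1 and DN2 cells, where 1.39% of features were called, nor between DN2 and DN3 cells, where 0.0222% were. By unadjusted limma p under 0.05 there was 1 member in the first step, Socs2, and there were 2 in the second, Socs2 and Socs3. Socs2 was higher in DN2 than in DN1 cells in 4 of 4 genotypes, by 2.10 in WT, 1.78 in Ezh2-deleted, 1.14 in p53-deleted and 1.91 in double-deleted cells, with an estimate of 1.73 ± 0.42 (limma, adjusted p = 0.0955). Without the p53-deleted DN2 array it was 2.09 (limma, adjusted p = 0.0257). With slide as a block it was 1.60 (limma, adjusted p = 0.209), and within slide 2 it was 1.46 (limma, adjusted p = 0.873). From DN2 to DN3 the Socs2 estimate was -1.20 ± 0.42 (limma, adjusted p = 0.612), and p53-deleted cells, at 0.34, went against the other genotypes. The other members had estimates between -0.40 and 0.26 in the first step. All 10 NK and innate lymphoid markers were above background on each DN1 array and 4 to 10 of them on the DN2 arrays. From DN1 to DN2, 5 of these 10, 2 of 9 myeloid and 2 of 5 measured B lineage markers were called lower. Of all features 1.21% were called lower, and no marker of the cell type lists was called higher. The part of such cells in the Socs2 values was not tested.

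Socs3 encodes the brake on receptors that signal through gp130, such as the IL-6 receptor. Its level was 3.79, 3.16 and 3.97 in WT, 4.75, 3.37 and 4.30 in Ezh2-deleted, and 3.75, 4.53 and 4.82 in p53-deleted cells, in the order DN1, DN2, DN3. The double-deleted arrays read 4.72, 4.77 and 5.79, and the leukemias 3.78 and 4.69. All double-deleted values lay above all WT values, but they overlapped those of both single deletions, and ETP-ALL 13 fell within the WT range. The estimate between double-deleted and WT cells was 1.45 ± 0.38 (limma, adjusted p = 0.0531), just short of the threshold. It passed in 6 of 24 alternative settings, with values between 1.26 and 1.72.

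On a count of arrays alone, 5 of the 8 members, Cish, Socs2, Socs3, Socs5 and Socs7, lay higher on all 3 double-deleted than on all 3 WT arrays, as did 9.73% of features. The median change of the 8 members was 0.64, beside -0.11 over all features tested. No member lay lower on all 3, whereas 22.3% of features did. The double-deleted arrays were brighter, with a 75th percentile of signal of 445.6 to 524.1 against 270.9 to 276.8 in WT. The part of brightness in these counts was not tested.

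**Figure D3:**
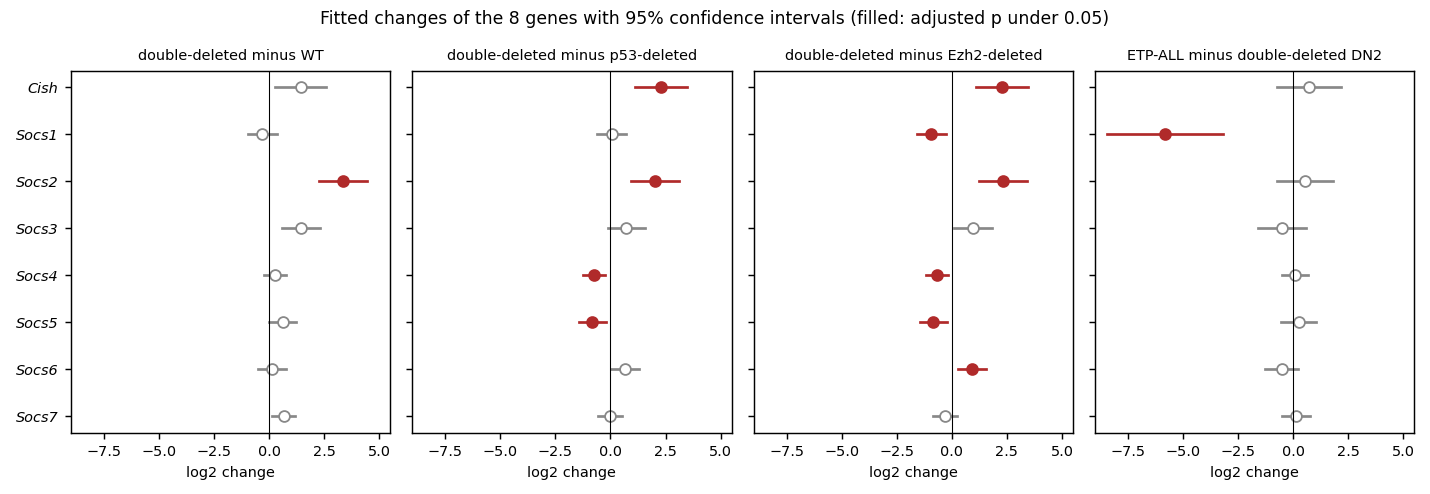
Fitted log2 changes of the 8 members (points) with 95% confidence intervals (bars) in 4 comparisons, filled and red where the adjusted p was under 0.05. Socs2 is called in the 3 comparisons of double-deleted cells, Cish in those against the single deletions, and Socs1 alone in the leukemias against double-deleted DN2 cells.

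Socs1, the strongest brake on interferon and IL-7 signals, had nearly the same level on the 3 WT arrays and was far lower in both leukemias. Its level was 3.82, 3.77 and 3.91 in WT, 4.76, 4.004 and 4.63 in Ezh2-deleted, and 3.79, 3.67 and 2.99 in p53-deleted cells, in the order DN1, DN2, DN3. The double-deleted arrays read 3.61, 3.16 and 3.84. ETP-ALL 13 read 0.02 and ETP-ALL 19 read -4.96, which was not well above background. Both leukemias lay below all 12 non-leukemic arrays, as did 4.01% of features.

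The leukemias differed from each other. Socs1 was 8.76-fold lower in ETP-ALL 13 than in double-deleted DN2 cells, the stage of the gate, and still above background. In ETP-ALL 19 its level was set to -3.85, that of the dimmest probe well above background on that array. This gave a level 128.4-fold lower than in the same cells. The second Socs6 probe, at -3.80, was not above background there. So -3.85 is no strict limit of detection and the fold is no strict bound. With the same level, ETP-ALL 19 lay 14.7-fold below ETP-ALL 13. A drop of over 2 between the leukemias in this direction was seen in 4.3% of features.

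Against double-deleted DN2 cells, the 2 leukemias together gave a Socs1 change of -5.82 ± 1.18 (limma, adjusted p = 0.0337), the only called member where 2.47% of features were called. The size of the change depends on ETP-ALL 19, whose Socs1 probe was not above background, so it is not an exact fall. With such dim values raised to the lowest detected level of their array, an alternative chosen after seeing the data, it was -5.27 (limma, adjusted p = 0.014). ETP-ALL 13 alone, where the probe was detected, gave -3.33 (limma, adjusted p = 0.00705), and ETP-ALL 19 alone gave -8.32 (limma, adjusted p = 0.000215), which is no measured fold. In both, the lone leukemia is assumed to vary like the other groups. Leaving out any 1 of 11 non-leukemic arrays, each except p53-deleted DN1, ended the call, with adjusted p up to 0.165 (limma). It also ended over slides 1, 3 and 4 alone (-5.78, limma, adjusted p = 0.209), and against the single double-deleted DN2 array (-5.62, limma, adjusted p = 0.715). Both leukemias were on slide 4, which held nothing else, so leukemia and slide cannot be told apart. The other 7 members had changes between -0.53 and 0.72 in this comparison, with no unadjusted limma p below 0.136.

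NK and innate lymphoid markers were read beside this change. Of 10, 6 were above background in each leukemia and in double-deleted DN2 cells, with Gzma, a granzyme named after its values were seen, at 9.96 and 9.95 against 7.89. Klrb1c, Ncr1, Klrd1 and Klrk1, the receptors among them, were not above background on any of those 3 arrays. The log2 of the list's summed intensity was 9.99 and 10.01 in the leukemias and 7.97 in double-deleted DN2 cells. It lay between 7.07 and 10.15 on the non-leukemic arrays. None of the 10 markers was called between the leukemias and double-deleted DN2 cells, and their median change was 0.48. The part of this list in the Socs1 change was not tested.

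Against the DN1 cells of the 4 genotypes, 3 of 8 members were called, where 14.6% of features were. Socs1 fell by 6.46 (SE 1.02, limma, adjusted p = 0.00318). With dim values raised to the lowest detected level its change was -5.91 (limma, adjusted p = 0.000999). Socs2 rose by 4.21 ± 0.49 (limma, adjusted p = 0.000666), and Cish rose by 2.44 ± 0.57 (limma, adjusted p = 0.0197). The Cish call ended without ETP-ALL 13, at 1.88 (limma, adjusted p = 0.138), and without the double-deleted DN1 array, at 2.18 (limma, adjusted p = 0.0575). Cish and Socs2 were not called against double-deleted DN2 cells, at 0.72 ± 0.66 and 0.54 ± 0.57 (limma, adjusted p = 0.604 and 0.66).

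Before leukemia, Socs1 was highest on the Ezh2-deleted arrays, the ones that differ from all others in sex-linked genes. All 3 of them lay above every other non-leukemic array, and the nearest of those was WT DN3 at 3.91. Socs1 was lower in double-deleted than in Ezh2-deleted cells, falling by 0.93 (SE 0.29, limma, adjusted p = 0.0395), and this call ended in 9 of 21 alternative settings. No slide held both of these genotypes, so genotype and slide cannot be told apart there. Against p53-deleted cells of the same slide, Ezh2-deleted cells gave 0.98 ± 0.29 (limma, adjusted p = 0.105). No member was called in that comparison, where 3.97% of features were.

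Other genes of the cytokine pathway were read in the same comparison. In the leukemias against double-deleted DN2 cells, no gene was called among 30 cytokine receptors, 11 JAK and STAT genes, 11 other inhibitors of cytokine signals, 7 partners of the SOCS box or 9 genes induced through STAT5 or STAT3. The median changes of these lists were 0.07, 0.21, -0.30, -0.07 and 0.52. Between double-deleted and WT cells, where Socs2 rose, the only called gene of these lists was Lifr, the leukemia inhibitory factor receptor, which rose by 1.72 ± 0.36 (limma, adjusted p = 0.0289) and was not above background in WT DN2 cells. No gene induced through STAT5 or STAT3 was called there, and their median change was -0.11.

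Against DN1 cells, 8 of the 30 receptors were called, 3 higher and 5 lower, beside 8.63% of all features higher and 5.98% lower. Il2ra, which encodes the CD25 used in the gate, rose by 4.96 ± 0.44 (limma, adjusted p = 0.000181), and Il10ra fell by 3.91 (SE 0.49, limma, adjusted p = 0.000903). Of the 11 other inhibitors of cytokine signals 4 were called lower and none higher, among them Ptprc, the phosphatase CD45, which fell by 2.30 (SE 0.40, limma, adjusted p = 0.00491), and Sh2b3, the adaptor LNK, which fell by 1.66 (SE 0.25, limma, adjusted p = 0.00224). Stat4 fell by 2.40 (SE 0.49, limma, adjusted p = 0.0111). In the same comparison, 7 of 10 NK and innate lymphoid markers were called lower, with a median change of -4.39, and 5 of 9 myeloid markers, with a median of -4.03. So were 2 of 6 gamma delta T markers, with a median of -3.29, and 1 of 5 measured B lineage markers, with a median of -2.13. Called higher were 1 of 4 measured dendritic, 1 of 3 erythroid and 1 of 4 stroma markers, and none of these was called lower. Their medians were -0.12, 1.07 and 0.05. The part of such cells in the changes against DN1 was not tested.

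The genes that neighbour Socs1 on chromosome 16 were read, after its values had been seen. They were the 5 nearest measured genes on each side, in RefSeq order. Clec16a, the nearest measured gene on one side, was at -4.91 in ETP-ALL 19 against -2.79 to -1.30 on the non-leukemic arrays, and at -1.24 in ETP-ALL 13. It was not above background in ETP-ALL 19. Rmi2, the fourth on the other side, was at -5.52 in ETP-ALL 13 and -4.86 in ETP-ALL 19 against -3.15 to -0.11, and was above background in neither. Tnp2 and Prm1, which lie between Socs1 and Rmi2, were above background in neither leukemia, whereas Prm2 between them was above background in both. Dexi and Nubp1 differed from double-deleted DN2 cells by -0.17 and 0.08 in ETP-ALL 19, and Litaf was 2.92 higher there. In ETP-ALL 13 Nubp1, above background, was at 2.64 against 3.07 to 4.96 on the non-leukemic arrays. Ciita and Prm2 in ETP-ALL 13 and Tvp23a in ETP-ALL 19 lay above the non-leukemic range. Prm1, above background on 6 of 14 arrays, was also below the non-leukemic range in both. With 1 array per leukemia these are values without a test.

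**Figure D4:**
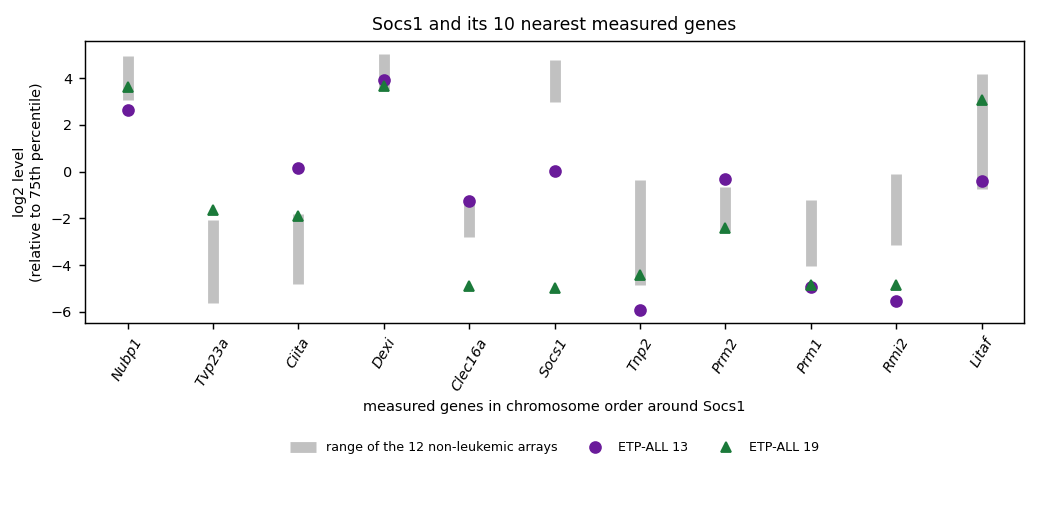
Level of Socs1 and of the 10 nearest measured genes in chromosome order (horizontal axis) as log2 relative to the 75th percentile of the array (vertical axis), with grey bars for the range of the 12 non-leukemic arrays, circles for ETP-ALL 13 and triangles for ETP-ALL 19. Socs1, Prm1 and Rmi2 lie below the grey bar in both leukemias, Clec16a in ETP-ALL 19, and Tnp2 and Nubp1 in ETP-ALL 13. Of these points only Socs1 and Nubp1 in ETP-ALL 13 were above background. Ciita and Prm2 in ETP-ALL 13 and Tvp23a in ETP-ALL 19 lie above the bar. Tvp23a has no ETP-ALL 13 value because its spot was marked as an outlier.

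Socs4, Socs5, Socs6 and Socs7 are the less studied members, and SOCS4 and SOCS5 are known for limiting receptors of the epidermal growth factor family. They were above background on all 14 arrays on their main probes and varied over 1.53, 2.43, 1.42 and 1.43. Neither leukemia lay outside the non-leukemic range for any of the 4. Socs4 was at 0.44, 0.82 and 1.15 in WT, 1.66, 1.97 and 1.65 in Ezh2-deleted, 1.63, 1.95 and 1.89 in p53-deleted and 1.09, 1.13 and 1.03 on double-deleted arrays, each from DN1 to DN3. The leukemias read 1.13 and 1.38. Every slide 2 array was above every other array for Socs4.

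Socs5 followed the same division. It was at -1.25, -2.19 and -1.64 in WT, 0.24, -0.36 and -0.62 in Ezh2-deleted, -0.02, -0.04 and -0.71 in p53-deleted and -1.003, -1.03 and -1.22 on double-deleted arrays, and at -0.59 and -1.26 in the leukemias. The slide 2 arrays lay above all other non-leukemic arrays, and ETP-ALL 13 lay among them.

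Socs6 was lowest and Socs7 highest on an Ezh2-deleted array. Socs6 was at -1.76, -0.99 and -1.01 in WT, -1.86, -2.40 and -1.75 in Ezh2-deleted, -1.68, -1.73 and -1.93 in p53-deleted and -1.15, -1.02 and -1.13 on double-deleted arrays, and at -1.67 and -1.60 in the leukemias. Socs7 was at 2.54, 2.53 and 3.05 in WT, 3.96, 3.56 and 3.54 in Ezh2-deleted, 3.38, 3.49 and 3.28 in p53-deleted and 3.56, 3.29 and 3.26 on double-deleted arrays, and at 3.62 and 3.27 in the leukemias. All WT values of Socs7 lay below all other arrays, whereas those of Socs6 overlapped the other genotypes.

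Against WT, 3 members were called in Ezh2-deleted cells, where 35.3% of features were, and 2 in p53-deleted cells, where 36.5% were. Socs5 rose by 1.45 ± 0.27 in Ezh2-deleted cells (limma, adjusted p = 0.0038) and by 1.44 ± 0.27 in p53-deleted cells (limma, adjusted p = 0.00355). Socs4 rose by 0.96 ± 0.22 and 1.02 ± 0.22 (limma, adjusted p = 0.01 and 0.00707). Socs7 rose by 0.98 ± 0.24 in Ezh2-deleted cells (limma, adjusted p = 0.0122), a call that ended without WT DN2 (limma, adjusted p = 0.0576) or without Ezh2-deleted DN1 (limma, adjusted p = 0.053). In p53-deleted cells it had 0.67 ± 0.24 (limma, adjusted p = 0.0517). These shares of members are close to the background, and both genotypes were on the dim slide 2 and WT on slide 1, so genotype and slide cannot be told apart.

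Double-deleted cells, which shared slide 1 with WT at DN2 and DN3, were called lower than both single deletions for Socs4 and Socs5. No slide held both a double-deleted array and an array of a single deletion. In all comparisons of this paragraph with a single deletion, genotype and slide therefore cannot be told apart. With Cish and Socs2, 4 of 8 members were called against p53-deleted cells, where 31.6% of features were. With Socs1 and Socs6 as well, 6 of 8 were called against Ezh2-deleted cells, where 30.8% of features were. Socs4 fell by 0.74 (SE 0.22) and Socs5 by 0.83 (SE 0.27) against p53-deleted cells (limma, adjusted p = 0.0318 and 0.0445). They fell by 0.68 (SE 0.22) and 0.84 (SE 0.27) against Ezh2-deleted cells (limma, adjusted p = 0.0445 and 0.0434). These 4 calls ended in 7 to 11 of 21 alternative settings each. Socs6 rose by 0.90 ± 0.28 against Ezh2-deleted cells (limma, adjusted p = 0.0383), but normexp background correction gave -0.11. Its second probe was above background on 4 of 14 arrays and gave 0.16 between double-deleted and WT cells, beside 0.15 on the main probe. Against Ezh2-deleted cells it went the other way, at -3.33, -3.58 and -3.61 on double-deleted and -2.75, -2.72 and -3.07 on Ezh2-deleted arrays. Of the latter only DN1 was above background. The mean of the Socs6 probes gave 0.12 against Ezh2-deleted cells (limma, adjusted p = 0.71).

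The deletions did not add up for 5 of the 8 members, where the interaction of Ezh2 and p53 deletion was called for 45.9% of features. The interaction is the double-deleted level minus what WT and the 2 single deletions would give by adding their changes. It was 3.15 ± 0.73 for Cish (limma, adjusted p = 0.00769). It was -1.69 ± 0.31 for Socs4 and -2.28 ± 0.38 for Socs5 (limma, adjusted p = 0.00236 and 0.00147). It was 1.43 ± 0.40 for Socs6 (limma, adjusted p = 0.0169), with -0.08 under normexp background correction and 0.20 from the mean of its probes. For Socs7 it was -0.99 ± 0.33 (limma, adjusted p = 0.037). The Socs7 call ended in 13 of 21 alternative settings, and normexp background correction gave -0.17 (limma, adjusted p = 0.616). Socs2, at 1.00 ± 0.68, had none called (limma, adjusted p = 0.257). Since both single deletions were on slide 2, the interaction and the slide cannot be told apart.

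Correlations between members are given as descriptions over arrays that share slides and scaling. Cish and Socs2 had a Pearson r of 0.71 over 14 arrays and 0.52 over the 12 non-leukemic ones. Cish and Socs6 had 0.39 over 14 and 0.61 over 12. Socs4, Socs5 and Socs7 had r of 0.68 to 0.79 with each other over 14 arrays. Socs6 had -0.63 with Socs4 and -0.68 with Socs5 over 14 arrays. Socs1 had -0.67 with Socs2 over 14 arrays and -0.49 over the 12 non-leukemic ones. Socs1 spanned 9.73 over 14 arrays and 1.78 over the 12 non-leukemic ones. Among 10834 named genes above background on at least 12 arrays, the most alike to Cish were Ep300, Ppcs and Mafg, each with r of 0.90. The most alike to Socs2 were Mmp17, Ctnnal1 and Pafah2 (0.89, 0.88 and 0.87), and to Socs1 Gm10406, Clk2 and AI854703 (0.92, 0.92 and 0.91). Socs3 had no gene as close, with Sh3bp5 at 0.76, Phlpp1 at 0.73 and Rdh10 at 0.73. The remaining members each had a nearest gene at 0.95 to 0.98: Upf3a for Socs4, Kif1c for Socs5, Dot1l for Socs6 and Cd99l2 for Socs7.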

How the data were processed

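Expression was measured in 14 samples on 1-colour Agilent arrays. Per the labels' protocols, 20 ng of total RNA went into each Cy3 labelling reaction. The authors read the arrays with Feature Extraction 10.7.1.1, per the file headers, and the deposited processed intensity is background-subtracted and spatially detrended, with no scaling between arrays. Per the file headers the array grid is annotated on another build than the promoter table, so no probe position is printed. In the authors' deposited value table, how the intensity was scaled is not stated; each column equalled the processed intensity over 1 constant, with medians of 0.065 to 0.105, and was linear and uncentred.

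Here, log2 intensity minus the array's 75th percentile was used, spots of 1 probe were averaged without those marked as outliers, and probes well above background on at least 2 of 14 arrays were tested, which gave 27082 features. The scanner files used here have no gene name column, so RefSeq accessions, which gave 27656 of 55681 probes 1 symbol, stood in for it. The brightest probe by mean represented a gene. An additive model of genotype and stage was fitted with limma 3.58.1 in R 4.3.3 on the 12 non-leukemic arrays (6 residual degrees of freedom), and with a leukemia term on all 14 (7 residual degrees of freedom). Features with an outlier mark on an array, 11 and 100, were not fitted. The fit was tested on simulated data. The number of arrays limits the precision. Between 40.3% and 50.4% of probes were above background per array and 0 were saturated.

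The members, the gene lists and the rules for named genes were chosen with earlier results of these data known. Named were all 8 members and at most the 3 largest called changes per list, comparison and direction, with the 3 most alike genes of each member. Alternatives were normexp background (offset 50), other scalings and filters, the deposited table, the mean of a gene's probes, eBayes with trend, slide as a block or split, each array left out and, chosen after seeing the data, slides 1, 3 and 4 alone and dim values raised to the lowest detected level. p-values measure only the spread between these samples. One gene list and its result are not reported here.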

Additional observations from a re-analysis of the deposited data

Results flagged for a closer look

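The Ezh2 by p53 interaction, a test of whether the change on deleting 1 gene differs with the state of the other, was past the threshold for 5 members (limma): Cish 3.15 (adjusted p = 0.00769), Socs4 -1.69 (adjusted p = 0.00236), Socs5 -2.28 (adjusted p = 0.00147), Socs6 1.43 (adjusted p = 0.0169) and Socs7 -0.99 (adjusted p = 0.037). Both single deletions were on slide 2, so these values cannot be told apart from the slide. The Socs7 call ended in 13 of 21 alternative settings and was -0.17 under normexp, and Socs6 turned sign there. Dixon's test of each member at each stage, 24 groups of 4 arrays, found 0 arrays past its critical ratio. Each group holds 1 array per genotype on several slides, not replicates, so the test cannot show that no array is unusual.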

How the results depend on the processing

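Alternatives were followed for the 38 member changes with an unadjusted limma p under 0.05 in the report's setting. These were picked from the same data, so the counts here do not describe the other member changes. Of their 840 values under alternatives, 719 kept their direction and their side of the threshold. The call was lost in 89 and gained in 27, and 5 turned sign. All 5 were Socs6: normexp background correction gave 0.0186 for Ezh2-deleted minus WT, -0.0637 for double-deleted minus p53-deleted, -0.1091 for double-deleted minus Ezh2-deleted and -0.0823 for the interaction, and the mean of its probes gave 0.0337 for Ezh2-deleted minus WT. The causes of the changes listed here were not tested.

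Counts of called features under normexp were 9865 for double-deleted minus WT (1945 in the report's setting), 15934 against p53-deleted (8561), 16329 against Ezh2-deleted (8328), 331 for Ezh2-deleted minus p53-deleted (1076), 1529 for ETP-ALL minus double-deleted DN2 (667) and 7286 for ETP-ALL minus DN1 (3943). With the percentile over probes above background on all arrays, double-deleted minus WT had 1157 features and double-deleted minus Ezh2-deleted 3 members. With no filter the latter had 20194 features. With the 7-array filter, features were 162 for DN2 minus DN1 (377) and 15 for DN3 minus DN2 (6), and members 2 for double-deleted minus WT and 4 for p53-deleted minus WT. With trend and robust eBayes these were 610, 27, 2 and 4. Normexp called 4 members for double-deleted minus WT, and quantile scaling 3 for the interaction. A random slide block gave 4 members for p53-deleted minus WT and 1216 features for ETP-ALL minus double-deleted DN2. Slide as a fixed block gave 591 features for double-deleted minus WT.

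Within slide 1, double-deleted minus WT had 308 features and 0 members, with Socs2 at 3.62, and DN3 minus DN2 had 0 features. Within slide 2, there were 92 for Ezh2-deleted minus p53-deleted, 5 for DN2 minus DN1 and 0 for DN3 minus DN2, which had 1 without slide 2. Over slides 1, 3 and 4, double-deleted minus WT had 667, and ETP-ALL minus double-deleted DN2 had 88 and 0 members, with Socs1 at -5.78. Against the single DN2 array it had 0 features and 0 members, with Socs1 at -5.62.

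Leaving out each array, features and members ranged from 145 to 2582 and 0 to 1 for DN2 minus DN1, 2 to 13 and 0 to 0 for DN3 minus DN2, 423 to 2008 and 1 to 2 for double-deleted minus WT (Socs2 2.83 to 3.77), 6358 to 10166 and 2 to 4 for Ezh2-deleted minus WT, 6927 to 9578 and 2 to 3 for p53-deleted minus WT, 4852 to 9134 and 1 to 4 for double-deleted minus p53-deleted, 4088 to 8912 and 1 to 6 for double-deleted minus Ezh2-deleted, 286 to 1142 and 0 to 0 for Ezh2-deleted minus p53-deleted, 10064 to 12181 and 3 to 5 for the interaction, 109 to 847 and 0 to 1 for ETP-ALL minus double-deleted DN2 (Socs1 -8.32 to -3.33) and 2449 to 4293 and 2 to 3 for ETP-ALL minus DN1. The share of called features that were higher was 51.7% for double-deleted minus WT and became 18.3% under normexp, 67.3% with the percentile over probes above background on all arrays and 92.5% within slide 1. Under normexp it went from 49.6% to 74.3% for Ezh2-deleted minus WT, 45.6% to 68.9% for p53-deleted minus WT, 50.1% to 24.8% for double-deleted minus p53-deleted, 44.7% to 22.5% for double-deleted minus Ezh2-deleted, 45% to 24.3% for the interaction and 59.1% to 36% for ETP-ALL minus DN1. The median change of all features moved from -0.31 to -0.76 in the interaction under normexp. No paired analysis was possible because the replicate numbers pair no arrays, with 1 array per genotype and stage. Stage, which the genotypes share, is a term of the fit.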
